A study of Mus musculus with 10 samples.

Results

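The genes described here encode the ligands, receptors, secreted inhibitors and effectors of Wnt signalling. The set comprised 48 of the 21887 protein-coding genes of the mouse RefSeq table, chosen by family and function with no measured value in the rule. It held 21 ligands (the 19 Wnt genes and the R-spondin genes Rspo1 and Rspo3), 15 receptors and coreceptors (Fzd1 to Fzd10, Lrp5, Lrp6, Lgr4, Lgr5 and Lgr6), 7 inhibitors (Wif1, Dkk1, Dkk2, Dkk3, Sfrp1, Sfrp2 and Kremen1) and 5 effectors (Axin2, Ctnnb1, Lef1, Tcf7l1 and Tcf7l2).

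Accessible chromatin was profiled by ATAC-seq, an assay in which a transposase cuts and tags open DNA, in thymic epithelial cells (TEC) sorted from wild type C57BL/6 mice. There were 10 libraries in 5 groups of 2, namely embryonic day 15 (E15), embryonic day 17 (E17) and 3 sorted fractions of day 6 mice labelled d6_mTEC4, d6_mTEC1 and d6_mTEC2, called mTEC4, mTEC1 and mTEC2 here. The labels spell out none of these fraction names and give no fraction for E15 and E17, so age and sorted fraction cannot be told apart in a comparison of embryonic with day 6 libraries. The peak names within the deposited lists carry other tags: E15, E17 and mTEC2 share the tag "hi", mTEC4 has "aTEC" and mTEC1 has "eTEC". No label says that the 2 libraries of a group came from separate animals, so a p-value measures only the spread between these libraries.

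Wnt ligands bind a Frizzled receptor together with the coreceptor LRP5 or LRP6, which spares β-catenin (Ctnnb1) from the destruction complex and lets it act in the nucleus with TCF and LEF factors. R-spondins, acting through LGR receptors, strengthen this signal, whereas WIF1 and SFRP proteins capture Wnts and Dickkopf proteins with Kremen act on LRP. In the thymus, Wnt proteins are known regulators of Foxn1, the transcription factor that TEC require.

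The values are peaks called by the authors in each library. Overlapping peaks of all lists were merged into regions, and a region was called in a library when a peak of that list overlapped it. The measure for a gene was the number of called regions in its window, the RefSeq gene span with 10 kb on each side. The 10 lists held 40858 to 151646 peaks each, and peaks reaching 5 on the −log10 q scale made up 41.7% to 48.8% of the embryonic lists against 6.33% to 14.3% of the day 6 lists. Region counts can follow both, so results are also given for lists shortened to the 40858 strongest peaks, called equal lists below. The lists carry no read counts, so sequencing depth is unknown and a site without a peak is only uncalled. In sorted bulk cells, fewer cells with an open site and less opening per cell cannot be told apart.

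The starts of 33 members could be matched to the RefSeq promoter table (GRCm38.p6, the same assembly as the mm10 lists), in which a start window runs from 250 bases before to 50 bases after a transcription start. Calls at these starts are given by role, with no test between roles. All 10 lists had a peak over the start of 8 of these 33 members (24.2%), against 33.8% of the 17492 genes with a window. They were the receptors Fzd1, Fzd4, Fzd5, Fzd7 and Lgr4 and the effectors Axin2, Ctnnb1 and Tcf7l2. No ligand or inhibitor with a window was among them. The other 15 members had no window, among them the inhibitors Dkk3, Sfrp1 and Kremen1. Of these 15, Wnt10a, Fzd3, Fzd6, Lrp6 and Kremen1 had a gene end with a call within 1 kb in all 10 lists. Which gene end is the start was not known for them. A start window called in all 4 embryonic lists and in no day 6 list was found for Wnt2, Wnt6, Wnt11 and Dkk1. This is 12.1% of the members with a window against 2.53% of genes. The Wnt2 window lies inside the gene span on the minus strand. Within 1 kb of the upstream end of that span (chr6:18032772), 8 lists had a call. These 8 were the 4 embryonic lists, both mTEC4 lists, mTEC1 replicate 1 and mTEC2 replicate 1. No list had a peak over the start window of Wnt8b, Wnt10b or Wnt16 (9.09% of members, 33.3% of genes). Within 1 kb of the gene end beside the window, Wnt16 had a call in the 4 embryonic lists alone. Wnt10b had one there in the 4 embryonic lists and mTEC2 replicate 1, and Wnt8b in none. Start windows from each of these sets are shown because the set is defined by what was called there, 5′ to 3′ on the gene's strand, with CpG dinucleotides in capitals.

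The 4 start windows called only in embryonic lists were those of Dkk1 (an antagonist that binds LRP coreceptors), Wnt2, Wnt6 and Wnt11.
Dkk1, chr19:30549447-30549746, minus strand: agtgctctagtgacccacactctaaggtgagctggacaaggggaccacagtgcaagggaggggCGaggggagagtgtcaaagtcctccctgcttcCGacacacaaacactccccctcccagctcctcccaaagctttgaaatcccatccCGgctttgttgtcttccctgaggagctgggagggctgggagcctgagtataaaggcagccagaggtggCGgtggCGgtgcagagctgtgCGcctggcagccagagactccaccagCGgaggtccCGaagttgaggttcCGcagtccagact
Wnt2, chr6:18030396-18030695, minus strand: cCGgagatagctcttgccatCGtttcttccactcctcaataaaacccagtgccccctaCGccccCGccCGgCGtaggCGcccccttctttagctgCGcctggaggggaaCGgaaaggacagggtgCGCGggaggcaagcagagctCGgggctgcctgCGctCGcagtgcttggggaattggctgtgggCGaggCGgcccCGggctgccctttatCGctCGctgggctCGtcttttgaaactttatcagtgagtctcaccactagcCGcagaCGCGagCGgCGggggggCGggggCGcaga
Wnt6, chr1:74771642-74771941, plus strand: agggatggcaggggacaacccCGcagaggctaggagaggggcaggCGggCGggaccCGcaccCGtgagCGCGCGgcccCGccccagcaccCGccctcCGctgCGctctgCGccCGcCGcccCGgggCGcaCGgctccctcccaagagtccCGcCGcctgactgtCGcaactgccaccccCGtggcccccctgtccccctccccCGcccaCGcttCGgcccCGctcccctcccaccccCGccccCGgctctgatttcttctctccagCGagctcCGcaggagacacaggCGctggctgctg
Wnt11, second start, chr7:98838595-98838894, plus strand: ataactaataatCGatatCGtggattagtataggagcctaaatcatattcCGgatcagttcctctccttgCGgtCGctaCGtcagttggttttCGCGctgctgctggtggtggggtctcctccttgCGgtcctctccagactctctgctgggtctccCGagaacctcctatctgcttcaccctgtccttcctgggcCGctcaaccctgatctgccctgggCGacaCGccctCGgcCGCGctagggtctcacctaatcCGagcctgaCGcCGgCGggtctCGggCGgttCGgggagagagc
From the starts called in all 10 lists, those of Axin2 (a scaffold of the destruction complex and a feedback target of the pathway) and Ctnnb1 (β-catenin itself) are shown.
Axin2, chr11:108920099-108920398, plus strand: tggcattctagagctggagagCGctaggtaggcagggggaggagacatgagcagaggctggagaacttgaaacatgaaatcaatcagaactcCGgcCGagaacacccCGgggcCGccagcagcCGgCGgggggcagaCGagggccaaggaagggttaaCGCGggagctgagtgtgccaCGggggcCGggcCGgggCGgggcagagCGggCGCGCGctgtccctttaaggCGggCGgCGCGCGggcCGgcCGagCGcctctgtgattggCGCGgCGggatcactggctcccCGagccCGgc
Ctnnb1, chr9:120933150-120933449, plus strand: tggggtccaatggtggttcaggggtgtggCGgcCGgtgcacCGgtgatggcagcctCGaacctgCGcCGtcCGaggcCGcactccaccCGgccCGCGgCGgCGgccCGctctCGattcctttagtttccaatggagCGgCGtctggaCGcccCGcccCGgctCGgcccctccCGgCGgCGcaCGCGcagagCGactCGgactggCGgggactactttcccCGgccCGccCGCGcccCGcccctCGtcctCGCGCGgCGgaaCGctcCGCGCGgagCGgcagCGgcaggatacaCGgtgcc
From the start windows called in no list, those of the ligand genes Wnt8b and Wnt16 are shown.
Wnt8b, chr19:44493222-44493521, plus strand: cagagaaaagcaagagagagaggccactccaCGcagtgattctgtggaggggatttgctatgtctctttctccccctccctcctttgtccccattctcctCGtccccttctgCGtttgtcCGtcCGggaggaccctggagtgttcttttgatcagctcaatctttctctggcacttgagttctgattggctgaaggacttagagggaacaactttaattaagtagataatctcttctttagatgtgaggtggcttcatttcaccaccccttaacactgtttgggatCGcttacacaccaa
Wnt16, chr6:22287977-22288276, plus strand: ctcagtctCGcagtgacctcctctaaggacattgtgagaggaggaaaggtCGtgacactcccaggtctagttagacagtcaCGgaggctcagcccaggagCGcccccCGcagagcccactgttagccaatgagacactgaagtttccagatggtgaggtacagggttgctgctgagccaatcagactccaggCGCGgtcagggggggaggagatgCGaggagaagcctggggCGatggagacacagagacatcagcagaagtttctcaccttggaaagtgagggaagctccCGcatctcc

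The Dkk1 window held 9 CpG with an observed to expected ratio of 0.327, the lowest of the 4 embryonic-only starts, where Wnt6 had 0.744, Wnt2 0.837 and Wnt11 0.877. The Axin2 and Ctnnb1 windows had ratios of 0.886 and 1.08, and those of Wnt8b and Wnt16 had 0.345 and 0.402. Over the 41 start windows of members (some genes have several), the median ratio was 0.886 in the 9 windows called in all lists, 0.781 in the 28 called in some and 0.373 in the 4 called in none. The same order held over all promoters of the table, with medians of 0.834, 0.641 and 0.182. The sequence TCAAAG, the core recognised by TCF and LEF factors, was searched on both strands (as TCAAAG or CTTTGA) and was present in 5 of the 41 member windows (12.2%), against 14.4% of the 21263 windows in the table. The Dkk1 window had 2 matches, which begin at −174 and −117 relative to the start site.

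Strength within the lists differed between these starts. The region over the Dkk1 start (chr19:30548834-30549677) had a −log10 q of 4.34, 5.29, 3.12 and 7.55 in the E15 and E17 lists. The region over the Wnt6 start (chr1:74771637-74772147) was weaker, at 1.67, 2.37, 1.30 and 3.45, and ranked no better than 59.2% from the top of any list. The region at the second Wnt11 start (chr7:98838800-98839146) reached 6.84 to 17.2 in the embryonic lists, and day 6 peaks of both mTEC4 lists and of mTEC2 replicate 1 lay in the same region but outside the start window. In equal lists the starts called in every embryonic and no day 6 list were those of Wnt11 and Lef1 (6.06% of members, 0.589% of genes), and the starts of Wnt6 and Dkk1 were in none of the 10. The receptor and effector starts called throughout stayed so in equal lists for Fzd4, Fzd5, Fzd7, Lgr4, Axin2, Ctnnb1 and Tcf7l2, whereas that of Fzd1 was missing from mTEC4 replicate 1.

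**Figure D1:**
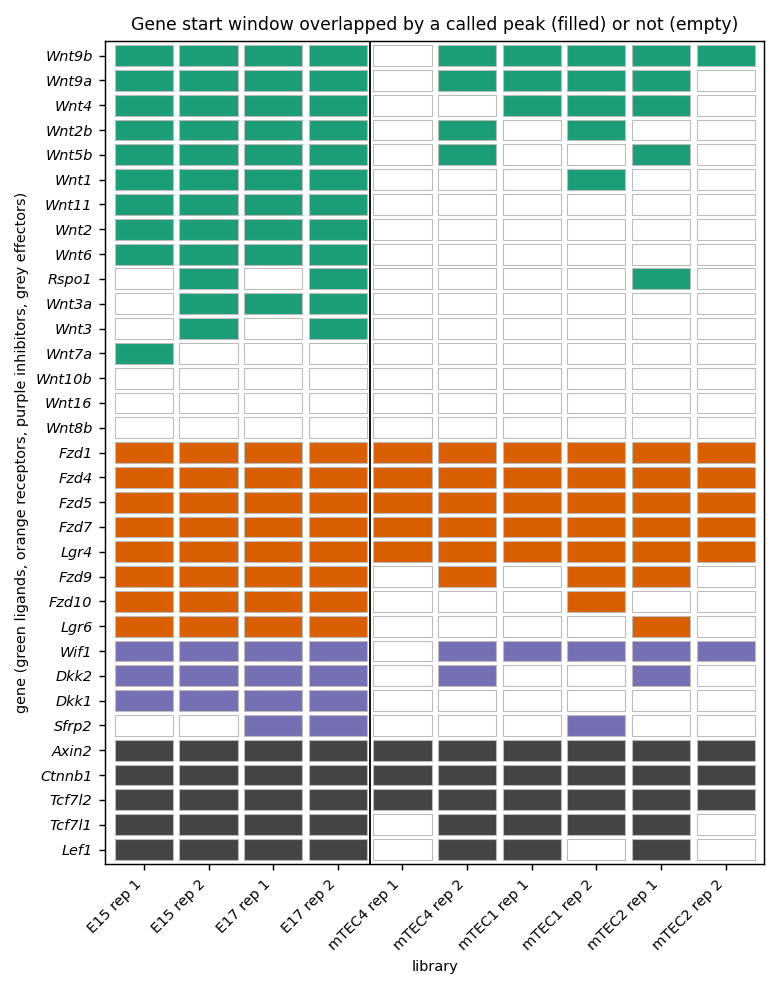
Each row is 1 of the 33 members with a RefSeq start window and each column a library; a filled cell means that a called peak overlapped the window in that library, and colours give the class. All receptor and effector rows are filled across the 4 embryonic libraries, 5 of 8 receptor rows are filled in all 10 libraries, and no ligand row is.

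Counted by class, the ligand starts were called in 10, 12, 10 and 12 of 16 in the embryonic libraries (in the order E15 replicates 1 and 2, E17 replicates 1 and 2). At day 6 they were called in 0 and 4 of 16 in mTEC4, 3 and 5 in mTEC1 and 5 and 1 in mTEC2. From all peaks, every embryonic library therefore had more ligand starts called than every day 6 library. In equal lists the ligand starts called were 7, 6, 5 and 3 of 16 against 0, 2, 2, 4, 1 and 1, and mTEC1 replicate 2 was above E17 replicate 2. Receptor starts were called in 8 of 8 in each embryonic library and in 5 to 7 of 8 at day 6. Inhibitor starts were called in 3, 3, 4 and 4 of 4 and then in 0 to 2 of 4, and effector starts in 5 of 5 in each embryonic library and in 3 to 5 of 5 at day 6. In equal lists, inhibitor starts were called in 1 of 4 in each embryonic library and in 0 or 1 of 4 at day 6. Receptor starts overlapped there, with 5 to 7 of 8 against 4 to 6 of 8. Effector starts were called there in 5 of 5 in each embryonic library and in 3 to 4 of 5 at day 6. Over the whole set, 78.8% to 87.9% of member starts were called in embryonic libraries and 24.2% to 57.6% at day 6, where all genes had 60.1% to 63.7% and 40.4% to 55.2%. In equal lists, a start called in all embryonic libraries was found for 39.4% of members and 39.6% of genes.

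Across the whole windows, every member had at least 1 called region in every embryonic library, and 27 members had one in every day 6 library. The shares of all genes that meet these conditions are not given here, so the counts are description only. The mean number of regions per member was 6.44, 6.38, 5.60 and 9.33 in the embryonic libraries. At day 6 it was 1.5 and 1.85 in mTEC4, 2.06 and 3 in mTEC1, and 4.35 and 2.04 in mTEC2. Divided by the mean over all genes of the same library, these became 1.58, 1.61, 1.58 and 1.65 in embryonic libraries, 0.752 and 0.773 in mTEC4, 0.894 and 1.19 in mTEC1, and 1.23 and 1.22 in mTEC2. Relative to other genes of their own library, the members thus held the most regions in the embryonic libraries and the fewest in mTEC4, and neither range overlapped the rest. In equal lists the ratios were 1.30 to 1.39 in embryonic libraries, 0.642 and 0.816 in mTEC4, 0.866 and 1.08 in mTEC1, and 1.07 and 1.21 in mTEC2, so the embryonic lists were again highest and mTEC4 lowest. Member windows were longer than those of all genes, with a median of 51.5 against 38.2 kb. Per 100 kb of window, the median member had 10.1 regions in embryonic and 3.65 in day 6 libraries, where the median gene had 7.04 and 4.01.

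**Figure D2:**
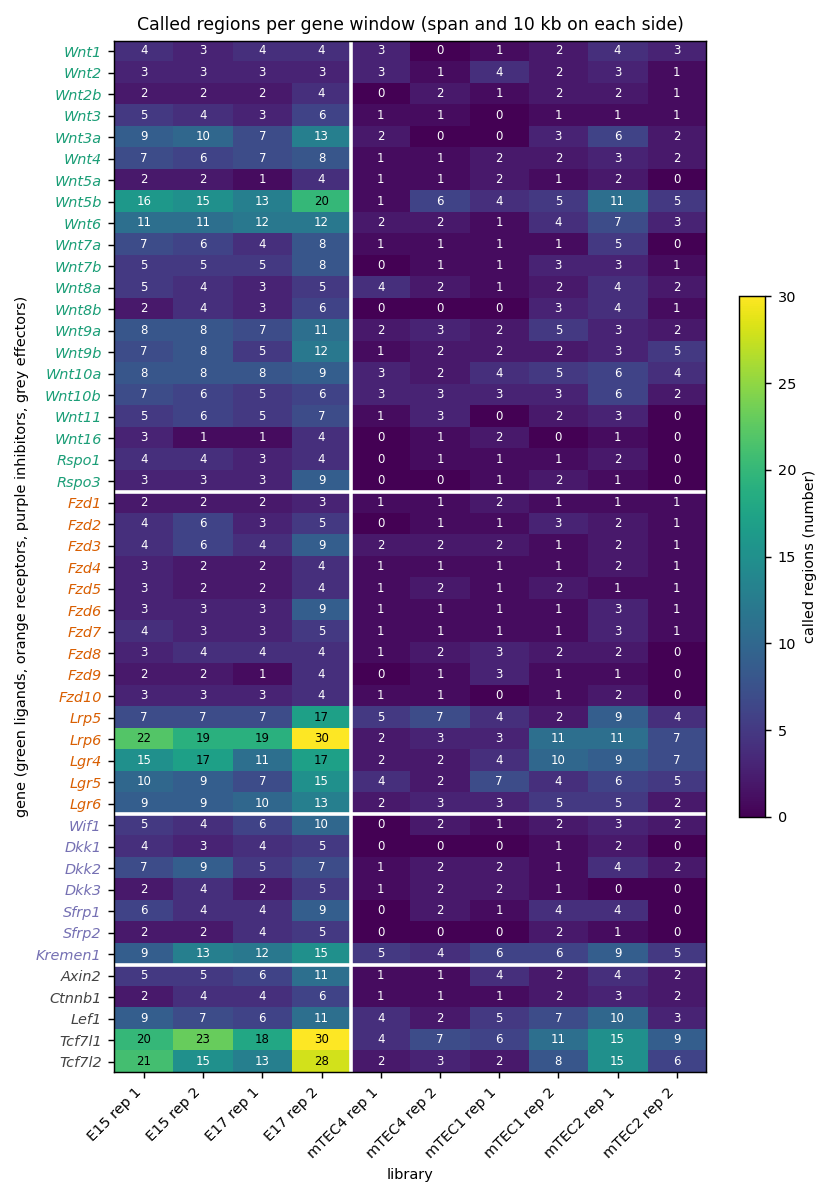
The number of called regions in each member's window (colour and printed number) is shown by gene (rows, grouped by class) and library (columns; the white vertical line parts embryonic from day 6 libraries). The 4 embryonic columns hold higher numbers than the 6 day 6 columns in most rows, the largest being 30 for Lrp6 and Tcf7l1 in E17 replicate 2.

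Embryonic and day 6 libraries were compared gene by gene with an exact two-sided permutation test over the 210 ways of choosing 4 of 10 libraries, adjusted by Benjamini-Hochberg over 21026 genes. The test treated all 10 libraries as exchangeable and set aside the 5 groups of 2. Its p-values and the SDs given below therefore mix differences between groups with the spread within them. At an adjusted p under 0.05, 26 of 48 members (54.2%) had more regions in embryonic libraries, against 19.1% of all genes tested, and 0 had fewer, against 0.128% of genes. The called ligands were Wnt3, Wnt3a, Wnt4, Wnt5b, Wnt6, Wnt7a, Wnt7b, Wnt9a, Wnt9b, Wnt10a, Wnt11, Rspo1 and Rspo3, which is 13 of 21. Among receptors 7 of 15 were called (Fzd2, Fzd3, Fzd10, Lrp6, Lgr4, Lgr5 and Lgr6), among inhibitors 4 of 7 (Wif1, Dkk1, Dkk2 and Kremen1) and among effectors 2 of 5 (Axin2 and Tcf7l1). The adjusted p of the exact permutation test was 0.0497 for Wnt7a, Wnt9b, Fzd2, Lgr4, Lgr5 and Kremen1 and 0.0343, the smallest it gave, for the other called members. The difference in mean regions, embryonic minus day 6, was above 0 for all 48 members and for 78.2% of genes, with a median of 3.75 for members and 1.25 for all genes tested. In 21 members (43.8%, against 16.3% of genes) every embryonic library had more regions than every day 6 library. At an unadjusted p under 0.05 by the exact permutation test, 38 members had more regions in embryonic libraries (79.2%, against 39.1% of genes) and 0 had fewer (1.01% of genes).

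The calls sat near the limit of the design and depended on list length. Leaving out any 1 library other than mTEC2 replicate 1 left 0 members called, with a smallest adjusted p of 0.0566 to 0.0833 by the exact permutation test, and 33 to 37 members at an unadjusted p under 0.05, where 27.1% to 38.1% of genes stood. Without mTEC2 replicate 1, 27 members were called, against 24.1% of genes. At equal list length the exact permutation test called 0 members and 0 genes, with a smallest adjusted p of 0.167. At an unadjusted p under 0.05, 12 of 48 members (25%) had more regions in the embryonic equal lists, against 11.2% of genes, and 0 had fewer, against 2.07%. The difference was above 0 in 35 members (72.9%, against 54.1% of genes), below 0 in 10 and 0 in 3, with a median of 0.58 against 0.17 for all genes. Embryonic and day 6 equal lists did not overlap for 6 members (12.5%, against 3.17% of genes), namely Wnt3a, Wnt4, Wnt6, Wnt9a, Wnt11 and Wif1, and the reverse held for 0 members (0.463% of genes). All of these but Wif1 are ligands.

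**Figure D3:**
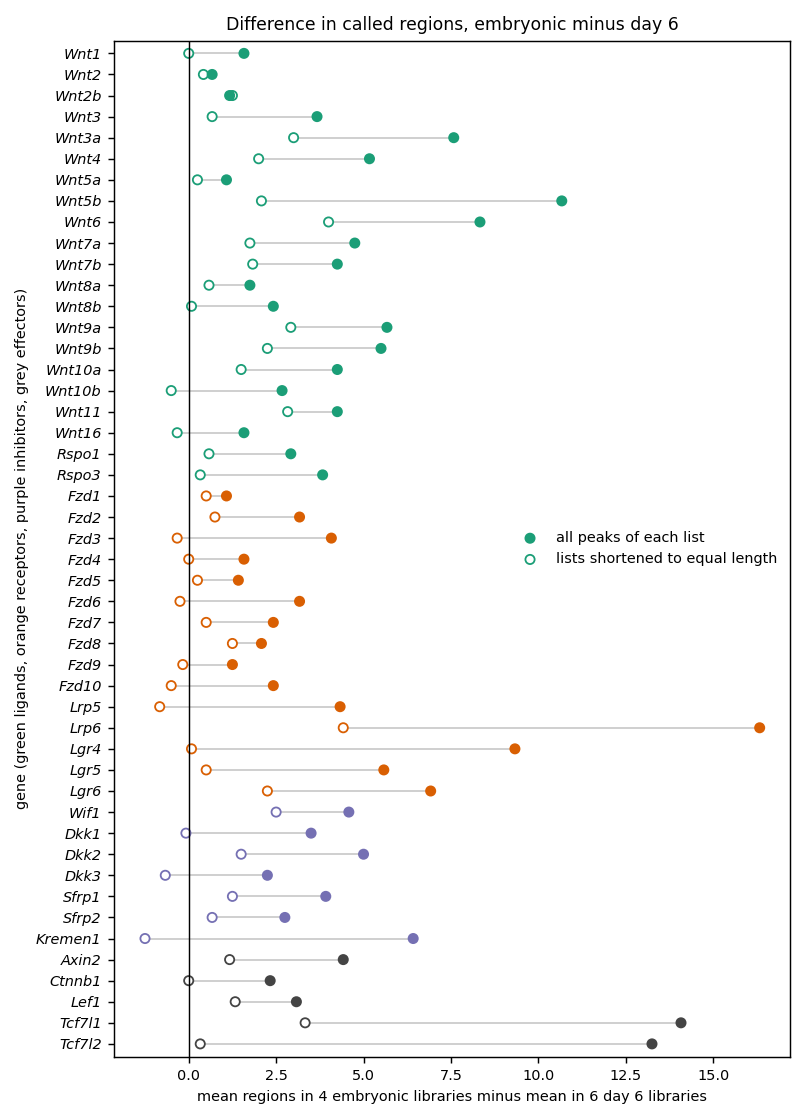
For each member, the mean number of called regions in 4 embryonic libraries minus the mean in 6 day 6 libraries is plotted from all peaks of each list (filled) and from lists shortened to equal length (open), joined by a grey line. All filled points lie above 0, and of the open points 35 lie above 0, 10 below and 3 at 0.

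Among the ligands, the Wnt5b window (chr6:119432531-119544824 for the gene span) held the most regions. It had 16, 15, 13 and 20 regions in the embryonic libraries and 1, 6, 4, 5, 11 and 5 at day 6 (here and below in the order mTEC4, mTEC1, mTEC2, replicates 1 and 2 of each). The means were 16 ± 2.94 (SD, n = 4) and 5.33 ± 3.27 (n = 6), a difference of 10.67 with an adjusted p of 0.0343 by the exact permutation test. All embryonic values lay above all day 6 values, and mTEC2 replicate 1, the longest day 6 list, was nearest to them. At equal length the difference was 2.08 and the groups overlapped.

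Wnt6 (chr1:74754342-74785322), which encodes a ligand expressed in several epithelia, had 11, 11, 12 and 12 regions in embryonic libraries against 2, 2, 1, 4, 7 and 3 at day 6. The means of 11.5 ± 0.577 (SD, n = 4) and 3.17 ± 2.14 (n = 6) differed by 8.33, with an adjusted p of 0.0343 in the exact permutation test. In equal lists every embryonic library had 6 regions and the day 6 libraries had 0 to 3, so the separation remained at the same number of peaks. Its neighbour Wnt10a (chr1:74792019-74804176), whose window shares regions with that of Wnt6, had 8, 8, 8 and 9 against 3, 2, 4, 5, 6 and 4. The adjusted p for Wnt10a was again 0.0343 by the exact permutation test, and in equal lists its embryonic values of 4 to 5 overlapped the day 6 values of 2 to 4.

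Wnt3a (chr11:59248036-59290751), a ligand of the β-catenin branch, had 9, 10, 7 and 13 regions in embryonic libraries and 2, 0, 0, 3, 6 and 2 at day 6. Its difference of 7.58 had an adjusted p of 0.0343 by the exact permutation test, and mTEC4 replicate 2 and mTEC1 replicate 1 had no region at all. The adjacent Wnt9a (chr11:59306849-59333552) had 8, 8, 7 and 11 against 2, 3, 2, 5, 3 and 2, a difference of 5.67 with the same adjusted p by the exact permutation test. Neither gene's groups overlapped, in all peaks or in equal lists, where the differences were 3 for Wnt3a and 2.92 for Wnt9a. Their windows share 2 regions because the genes are neighbours, so they are not independent, and the same applies to Wnt3 with Wnt9b and Wnt1 with Wnt10b.

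For ligands not called, Wnt10b (chr15:98770712-98778206) had 7, 6, 5 and 6 regions against 3, 3, 3, 3, 6 and 2. Its adjusted p was 0.102 by the exact permutation test, and its difference of 2.67 became −0.50 in equal lists. The Wnt10b window includes a region called in all 10 lists that lies at an end of the neighbouring gene Arf3. Wnt8b (chr19:44493472-44514273) had 2, 4, 3 and 6 regions against 0, 0, 0, 3, 4 and 1, with an adjusted p of 0.171 by the exact permutation test. Both mTEC4 libraries and mTEC1 replicate 1 had no region in the Wnt8b window, and the groups overlapped.

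Among the receptors, Lrp6 (chr6:134446476-134566913), the coreceptor that Wnt-bound Frizzled recruits, had the largest difference of all members. Its counts were 22, 19, 19 and 30 in embryonic libraries and 2, 3, 3, 11, 11 and 7 at day 6. The means of 22.5 ± 5.20 (SD, n = 4) and 6.17 ± 4.12 (n = 6) differed by 16.33, with an adjusted p of 0.0343 by the exact permutation test. No day 6 value reached the embryonic ones, and within day 6 both mTEC2 libraries were above both mTEC4 libraries. For Lrp6 the equal-list difference was 4.42, with an unadjusted p of 0.0143 by the exact permutation test and an overlap between mTEC2 replicate 2 (7) and E17 replicate 1 (6).

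The R-spondin receptor genes Lgr4, Lgr5 and Lgr6 were all called. Lgr4 (chr2:109917647-110014257) had 15, 17, 11 and 17 regions against 2, 2, 4, 10, 9 and 7, with an adjusted p of 0.0497 by the exact permutation test. Lgr6 (chr1:134983300-135105374) had 9, 9, 10 and 13 against 2, 3, 3, 5, 5 and 2, with an adjusted p of 0.0343 by the exact permutation test. Neither gene's embryonic and day 6 values overlapped. Lgr5 (chr10:115450314-115587780), known as a marker of epithelial stem cells in other tissues, had 10, 9, 7 and 15 against 4, 2, 7, 4, 6 and 5, and the groups met at 7 regions. Their differences in equal lists were 0.08 for Lgr4, 0.50 for Lgr5 and 2.25 for Lgr6.

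Lrp5 (chr19:3584825-3686585), the close relative of Lrp6, was not called. It had 7, 7, 7 and 17 regions against 5, 7, 4, 2, 9 and 4, with an adjusted p of 0.187 by the exact permutation test. The embryonic mean of Lrp5 rested on E17 replicate 2, and in equal lists each embryonic library had 3 regions against 5, 5, 4, 1, 4 and 4 at day 6, a difference of −0.83. Fzd6 (chr15:39006149-39038192) had 3, 3, 3 and 9 regions against 1, 1, 1, 1, 3 and 1, with an adjusted p of 0.0696 by the exact permutation test and a difference of −0.25 in equal lists. Of the other Frizzled genes, Fzd2, Fzd3 and Fzd10 were called and Fzd1, Fzd4, Fzd5, Fzd7, Fzd8 and Fzd9 were not, with differences of 1.08 to 2.42 for those 6.

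Among the inhibitors, Wif1 (chr10:121034004-121100642), which encodes a secreted protein that binds Wnts, had 5, 4, 6 and 10 regions against 0, 2, 1, 2, 3 and 2. The difference of 4.58 had an adjusted p of 0.0343 by the exact permutation test. Its groups did not overlap, in all peaks or in equal lists, where the counts were 3, 3, 3 and 5 against 0, 1, 1, 1, 1 and 2. The region over its start (chr10:121033204-121034304) was called in 9 of the 10 lists and missing from mTEC4 replicate 1. An intragenic region 21681 bases after the start (chr10:121055509-121055862) was called in the 4 embryonic lists alone, with a −log10 q of 21.2, 16.0, 19.2 and 47.1. The start was therefore called at both ages and the intragenic region only in the embryonic lists.

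Dkk1 (chr19:30545876-30549496) had 4, 3, 4 and 5 regions in embryonic libraries and 0, 0, 0, 1, 2 and 0 at day 6, with an adjusted p of 0.0343 by the exact permutation test. In equal lists it had 0, 0, 1 and 0 regions against 0, 0, 0, 1, 1 and 0, so nearly all of its embryonic peaks fell outside the strongest 40858 of their lists. Dkk2 (chr3:132085266-132180304), another Dickkopf gene, had 7, 9, 5 and 7 against 1, 2, 2, 1, 4 and 2, with an adjusted p of 0.0343 by the exact permutation test. The groups of Dkk2 did not overlap in all peaks, and in equal lists its difference was 1.5. Kremen1 (chr11:5191551-5261713), which encodes a Dickkopf receptor known to shape the thymic epithelium, had 9, 13, 12 and 15 against 5, 4, 6, 6, 9 and 5. Its adjusted p was 0.0497 by the exact permutation test, with both groups meeting at 9 regions. In equal lists Kremen1 had 1, 2, 4 and 4 regions against 5, 3, 3, 5, 3 and 5, and this difference of −1.25 had an unadjusted p of 0.257 by the exact permutation test.

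Sfrp1 and Sfrp2, whose products resemble the Wnt-binding part of Frizzled, were not called. Sfrp1 (chr8:23411383-23449632) had 6, 4, 4 and 9 regions against 0, 2, 1, 4, 4 and 0, with an adjusted p of 0.0943 by the exact permutation test. Sfrp2 (chr3:83765750-83774314) had 2, 2, 4 and 5 against 0, 0, 0, 2, 1 and 0, with an adjusted p of 0.0634 by the exact permutation test. Both sets of values overlapped between the ages. Dkk3 was not called either and had no region in the mTEC2 libraries.

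Among the effectors, Axin2 (chr11:108917828-108950783) had 5, 5, 6 and 11 regions against 1, 1, 4, 2, 4 and 2, and Tcf7l1 (chr6:72626371-72789045), which encodes a TCF factor often acting as a repressor, had 20, 23, 18 and 30 against 4, 7, 6, 11, 15 and 9. Each had an adjusted p of 0.0343 by the exact permutation test and no overlap between the groups. The difference was 4.42 for Axin2 and 14.08 for Tcf7l1, and in equal lists 1.17 and 3.33 with overlapping groups. The region at the Axin2 start (chr11:108920126-108921419) was called in all 10 lists, with a −log10 q of 6.51 to 10.5 in embryonic and 2.80 to 5.62 in day 6 lists.

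Ctnnb1 (chr9:120933400-120960507) was not called, with 2, 4, 4 and 6 regions against 1, 1, 1, 2, 3 and 2 and an adjusted p of 0.0696 by the exact permutation test. Its start region (chr9:120933228-120934528) was called in all 10 lists and was the only region of its window called in mTEC4 and in mTEC1 replicate 1. Lef1 (chr3:131110297-131224357), a TCF family gene, had 9, 7, 6 and 11 against 4, 2, 5, 7, 10 and 3, with an adjusted p of 0.25 by the exact permutation test. Its values overlapped widely, and none of its 27 regions was called in all 10 lists or in all 4 embryonic and no day 6 list. The Lef1 difference was 3.08, and 1.33 in equal lists. With a −log10 q of at least 2 or 5, Lef1 had adjusted p of 0.0135 and 0.01 by the exact permutation test. At these thresholds 51.7% and 70.1% of all genes were called. Tcf7l2 (chr19:55741797-55933659) had 21, 15, 13 and 28 against 2, 3, 2, 8, 15 and 6, where mTEC2 replicate 1 equalled E15 replicate 2. The Tcf7l2 difference of 13.25 had an adjusted p of 0.0696 by the exact permutation test and was 0.33 in equal lists.

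**Figure D4:**
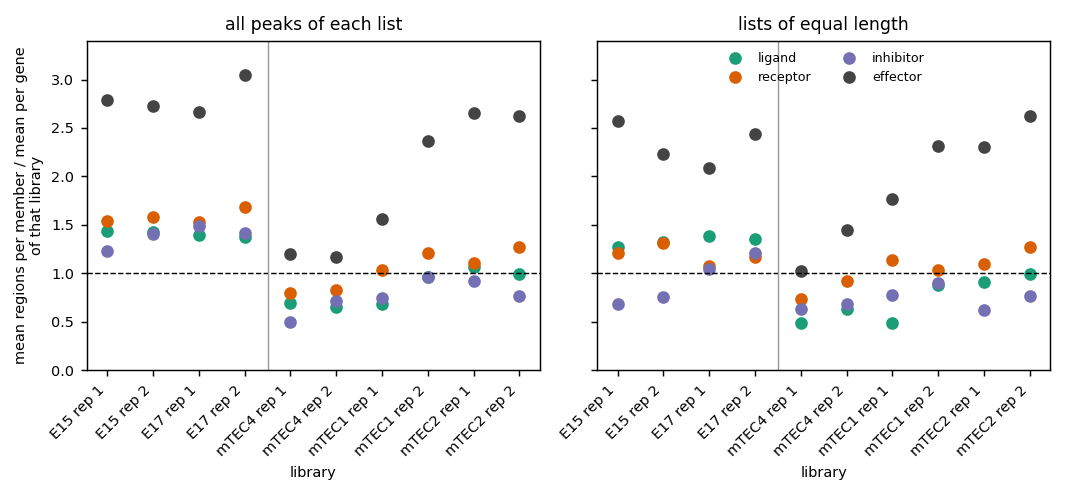
The mean number of regions per member of a class divided by the mean over all genes of that library is shown for the 10 libraries, from all peaks (left) and from lists of equal length (right); the dashed line marks the mean of all genes. From all peaks every class lies above the line in the 4 embryonic libraries, and in the mTEC4 libraries only the effectors do.

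The classes were set against the mean per gene of the same library. Ligands had 1.38 to 1.44 times this mean in embryonic libraries, 0.655 and 0.693 times in mTEC4, and 0.681 to 1.07 times in mTEC1 and mTEC2. Inhibitors had 1.23 to 1.49 times in embryonic libraries and 0.501 to 0.960 times at day 6, and receptors 1.53 to 1.69 and 0.802 to 1.27 times. Effectors, whose windows were the longest with a median of 134 kb, had 2.66 to 3.05 times in embryonic libraries, 1.17 and 1.20 times in mTEC4, and 1.56 to 2.65 times in mTEC1 and mTEC2. At equal length the ligands had 1.27 to 1.39 times in embryonic libraries and 0.487 to 0.992 times at day 6, with no overlap. The other classes overlapped there, with receptors at 1.08 to 1.31 and 0.734 to 1.27 times, inhibitors at 0.688 to 1.21 and 0.626 to 0.906 times, and effectors at 2.09 to 2.57 and 1.03 to 2.62 times.

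Taken one day 6 group at a time, a comparison of 2 with 4 libraries cannot reach 0.05 by permutation (the smallest p is 0.0667), so counts without overlap are given. Every embryonic library was above both mTEC4 libraries for 38 of 48 members (79.2%, against 42.2% of genes), above both mTEC1 libraries for 32 (66.7%, against 37% of genes) and above both mTEC2 libraries for 28 (58.3%, against 24.1% of genes). None of the 48 members was below in any of these comparisons (3.6%, 3.01% and 0.956% of genes). The counts above in equal lists were 21 for mTEC4 (16.8% of genes), 12 for mTEC1 (12.4%) and 6 for mTEC2 (8.02%). The 6 genes above mTEC2 were Wnt3a, Wnt4, Wnt6, Wnt9a, Wnt11 and Wif1. Lrp5 was below both mTEC4 and both mTEC2 equal lists, Dkk3 below mTEC4 and Wnt1 below mTEC2 (4.79% of genes for mTEC4 and 4.69% for mTEC2), and no member was below both mTEC1 equal lists (4.15%).

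Within day 6, both mTEC2 libraries were above both mTEC4 libraries for 12 members (25%, against 9.22% of genes). They were Wnt4, Wnt6, Wnt8b, Wnt9b, Wnt10a, Lrp6, Lgr4, Lgr5, Axin2, Ctnnb1, Tcf7l1 and Tcf7l2. The reverse held for Dkk3 alone (4.9% of genes). In equal lists 13 members were above in mTEC2 (12.4% of genes) and Lrp5 and Dkk3 were above in mTEC4 (4.76%). Both mTEC1 libraries were above both mTEC4 libraries for Wnt4, Wnt10a, Rspo3, Lgr4, Kremen1, Axin2 and Lef1 (14.6% of members, 8.77% of genes), and the reverse held for Lrp5 (4.72% of genes). In equal lists mTEC1 was above for Rspo3, Fzd2, Lgr4 and Lef1 (6.79% of genes) and mTEC4 for Wnt7a and Lrp5 (4.62%). Between mTEC2 and mTEC1, Wnt1 and Wnt9b were above in mTEC2 (5.22% of genes) and Dkk3 in mTEC1 (4.28%). In equal lists mTEC2 was above for Wnt1, Wnt5b, Lrp6 and Tcf7l2 (8.32% of genes) and mTEC1 for 0 members (3.67%). These comparisons share libraries and are not independent of each other.

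Between the embryonic ages, both E17 libraries were above both E15 libraries for Wnt6, Lgr6, Wif1, Sfrp2 and Axin2 (10.4% of members, 7.24% of genes), and the reverse held for 0 members (1.12% of genes). In equal lists E17 was above for Wnt3a, Wnt5b, Wnt11, Dkk2, Kremen1 and Ctnnb1 (7.65% of genes) and E15 for Wnt2, Fzd1 and Fzd9 (6.41%). The genes named from all peaks and from equal lists differ, and 2 against 2 libraries allow no test at 0.05.

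Single regions were then sorted by the lists that called them. The member windows held 649 regions, of which 49 (7.55%, against 5.31% over all gene windows) were called in all 4 embryonic and no day 6 list, and 20 (3.08%, against 4.65%) in all 10 lists. A further 160 (24.7%, against 19.9%) were called in all 4 embryonic lists and at least 1 day 6 list. A total of 274 (42.2%, against 48.9%) were called in 1 list. Without mTEC2 replicate 1 the embryonic-only regions numbered 81, and in equal lists 14. Of the 49 embryonic-only regions, 32 lay within a gene span, 11 in a flank and 6 within 1 kb of a gene end. These are close to the proportions of all 649 member regions, with 64.6% in gene spans, 24.5% in flanks and 10.9% at gene ends. Of the 20 regions called throughout, 13 lay at a gene end. Embryonic-only regions were found in the windows of 33 members, and the share of all genes with such a region is not given here. By class they made up 18 of 224 ligand regions (8.04%), 15 of 205 receptor regions (7.32%), 9 of 82 inhibitor regions (11%) and 7 of 138 effector regions (5.07%).

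After the intragenic Wif1 region, the embryonic-only region with the best ranks lay in the gene span of Wnt6 (chr1:74759939-74760103), at −11871 from the start site used above, with a −log10 q of 9.17, 11.7, 15.8 and 33.1. Next came regions within Wnt7b (chr15:85580531-85580771), Lgr6 (chr1:134989502-134989624) and Wnt5b (chr6:119483036-119483246). Further ones lay in the Fzd2 flank (chr11:102615551-102616005), within Lrp6 (chr6:134542288-134542689), in the flanks of Rspo1 (chr4:124978303-124978491) and Lgr6 (chr1:135108762-135108937), within Dkk2 (chr3:132131241-132131567) and at 2 places in the Tcf7l1 window (chr6:72763719-72764007 and chr6:72798459-72798817). The poorest within-list rank of the Wif1 region was 7.63% from the top, that of the Wnt6 region 19.0% and that of the last Tcf7l1 region 61%.

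**Figure D5:**
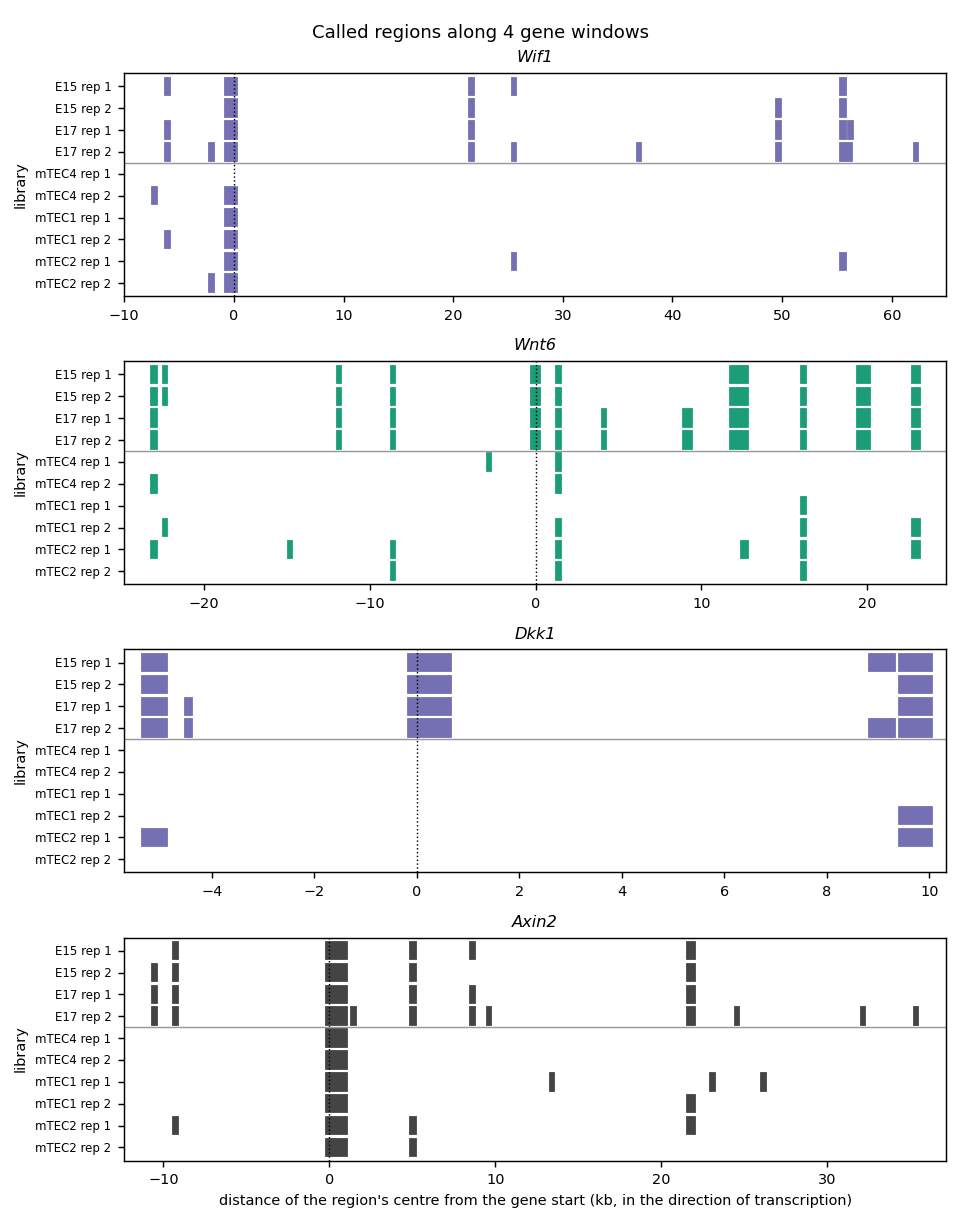
Called regions are drawn as blocks along the windows of Wif1, Wnt6, Dkk1 and Axin2 for each library (rows), with the distance from the gene start in kb on the horizontal axis and narrow regions widened to a visible minimum. The Axin2 start is called in all 10 rows and the Wif1 start in 9, whereas the start regions of Wnt6 and Dkk1 and the Wif1 block near 21.7 kb appear in the 4 embryonic rows alone.

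The reverse pattern, all 6 day 6 lists and no embryonic list, was met by 1 region of the members (0.154%, against 0.0397% over all gene windows). It lay within Lgr5 (chr10:115573049-115573670), and its peaks were weak, with a −log10 q of 1.09 to 2.17. No base was common to all 6 peaks: the mTEC4 replicate 1 peak ended at 115573227, before the mTEC4 replicate 2 peak began at 115573535. The region is therefore a chain of neighbouring peaks and not 1 site called in every day 6 list. The number of such regions was 0 without mTEC1 replicate 2, 2 without mTEC1 replicate 1 and 0 in equal lists.

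Regions called in all 4 embryonic lists were followed into day 6. Of the 209 such member regions, 28 (13.4%) and 58 (27.8%) were also called in the mTEC4 libraries, 47 (22.5%) and 94 (45%) in mTEC1, and 130 (62.2%) and 59 (28.2%) in mTEC2. Over the 47526 such regions of all gene windows the shares were 26.4% and 40.7%, 32.9% and 53.2%, and 67.8% and 38%. The member share was the lower value in each of the 6 libraries, a difference that was not tested.

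The other genes of the pathway were examined as a list of 55. Of these, 18 (32.7%, beside 19.1% of all genes) had more regions in embryonic libraries, 0 had fewer, and 53 had a difference above 0. In equal lists none was called by the exact permutation test, and 10 had more embryonic regions at an unadjusted p under 0.05, where 11.2% of all genes stood. All 4 alternative Wnt receptor genes were called (Ror1, Ror2, Ryk and Ptk7), as were 4 of 7 planar polarity genes, 3 of 6 targets, 3 of 13 further modulators, 2 of 13 intracellular components, 2 of 9 nuclear factors and 0 of 3 secretion genes. Ror1, a receptor for Wnt signals outside the β-catenin branch, had 29, 31, 17 and 43 regions against 3, 3, 6, 8, 14 and 6. Among called genes the largest differences were 28.75 for Tcf4, 23.33 for Ror1, 19.08 for the polarity cadherin gene Celsr1, 13.00 for Ror2, 11.75 for Daam1 and 8.42 for Vangl1. Tcf4 encodes the E protein E2-2 and not the TCF factor known by that alias. Sp5, a direct β-catenin target in many cell types, had 3, 2, 1 and 3 regions against 0 in every day 6 library. In equal lists the Sp5 difference of 2.25 became 0.25, with an unadjusted p of 0.4 by the exact permutation test.

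Markers of the labelled tissue and of other cells were counted in the same way. Summed over 12 thymic epithelial markers, the windows held 72 to 109 regions in embryonic and 20 to 63 in day 6 libraries, and in equal lists 32 to 35 and 15 to 30. Of these 12 markers, 11 had a difference above 0, as did 78.2% of all genes, with Cldn4 the smallest of the 11 at 0.08. Epcam was at −0.25, with 1 and 2 regions in the mTEC4 libraries. Both mTEC4 libraries had no region in the windows of Foxn1 and Krt5. In embryonic libraries Foxn1 had 7, 8, 8 and 10 regions and Krt5 had 3, 4, 3 and 6. The 10 thymocyte markers had 31 to 49 and 12 to 46 regions (15 to 22 and 8 to 32 in equal lists), and the 8 mesenchyme markers had 25 to 42 and 7 to 18 (10 to 17 and 3 to 7). The 6 endothelial markers had 26 to 51 and 12 to 31 (11 to 13 and 4 to 15), and the 8 dendritic cell and macrophage markers 26 to 39 and 18 to 33 (14 to 18 and 9 to 18). By the same test 6 of 12 thymic epithelial, 3 of 8 mesenchymal, 1 of 6 endothelial, 1 of 8 dendritic cell and macrophage and 0 of 10 thymocyte markers were called, all with more regions in embryonic libraries. Of all genes, 19.1% were called in that direction. In equal lists 0 markers and 0 genes were called. Of the thymic epithelial markers, only Cldn4 (−0.25), Epcam (−0.17) and Ly75 (−0.08) had differences below 0 there. Of the thymocyte markers 5 had a difference above 0, the largest being Bcl11b at 9.17, Lck at 2.50 and Ptcra at 1.58. A further 4 were below 0, the lowest being Cd3d at −1.92, Cd3g at −1.50 and Cd8a at −1.33. The mesenchymal marker Twist1 had no region in any day 6 library, and in equal lists it had none in any library, embryonic ones included. The thymic epithelial and mesenchymal sums did not overlap between the ages, in all peaks or in equal lists, and the part of any of these markers in the member results was not tested.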

How the data were processed

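ATAC-seq peak lists of 10 libraries, 2 in each of 5 groups taken from the sample titles, were used as deposited. Per the submitters' processing notes, reads were handled with cutadapt, Bowtie2, Picard and MACS2 on mm10. Versions, parameters and any shift of read ends are not given in the sources used here. Per the labels, the libraries represent nucleosome-free chromatin. There was 1 broad peak list per library, with no pooling of replicates. Each deposited peak has a display score, a fold enrichment (a ratio) and the −log10 of its p-value and q-value, all as the authors' peak caller gave them. Peaks were filtered and ranked by the −log10 q, whose lowest value was 1. Ties in rank were broken by the −log10 p and then by the order in the list. No read counts come with the lists, so depth is unknown and no interval is given.

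Peaks of all lists were merged where they overlapped or touched. Peaks on unplaced contigs (0.227%) were left out, and 0 columns of per-sample values went unused. Regions were counted in RefSeq gene spans (GRCm38.p6) with 10 kb on each side. Genes with at least 1 region were tested with an exact two-sided permutation test of the mean difference, embryonic against day 6, with Benjamini-Hochberg adjustment and a threshold of 0.05. Alternatives were lists of equal length, division by the library mean, stricter −log10 q thresholds (2 and 5), direct peak counts, 50% coverage, other windows, a filter on low values, a replicate block and leaving out each library. Equal lists with the block were added after seeing the data. The scripts were tested on simulated data.

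The members and lists were chosen with earlier results of these data known. Values in every library were given for Wif1, Ctnnb1, Lef1 and Axin2 and, in each class, for up to 4 called members and up to 2 uncalled members with the largest differences and up to 2 with the most day 6 regions. Other genes named follow from counts and were named after their values were seen. Python 3.11.15, numpy 2.4.6, pandas 2.3.3 and matplotlib 3.10.9 were used.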

Additional observations from a re-analysis of the deposited data

Results flagged for a closer look

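Among 48 groups of 4 embryonic or 6 day 6 values of the named members, 8 held a library far from the others by Dixon's criterion, which chance meets in about 1 in 20 groups of continuous values. These are small counts with ties, for which that rate does not apply and a difference of 1 region can meet the criterion, as for Wnt10a below. In E17 replicate 2, the longest embryonic list, Axin2 had 11 regions where the other embryonic libraries had 5 to 6. The same library had 9 regions for Wnt10a against 8 in the others, 17 for Lrp5 against 7, and 9 for Fzd6 against 3. In mTEC2 replicate 1, the longest day 6 list, Wnt10b had 6 regions where the other day 6 libraries had 2 to 3, Fzd6 had 3 against 1, and Dkk2 had 4 against 1 to 2. In mTEC1 replicate 2, Wnt9a had 5 regions against 2 to 3 in the other day 6 libraries. The part of list length in these values was not tested.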

How the results depend on the processing

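From 26 members called (19.1% of genes), the count became 0 in lists of equal length and 0 after division by the library mean per gene. At an unadjusted p under 0.05 by the exact permutation test, 12 (11.2% of genes) and 23 (10.8% of genes) had more embryonic regions there. The count was 45 with a −log10 q of at least 2 (51.7% of all genes called) and 16 with gene spans alone (11.3% of genes). It was 0 to 27 on leaving out 1 library (24.1% of genes at 27). It was 36 with a −log10 q of at least 5 (75% of members, against 70.1% of genes), 20 with peaks counted directly (13.5% of genes), 37 with 50% coverage (41% of genes), 31 with 50 kb flanks (37.6% of genes) and 26 with a mean of at least 1 region (22.5% of genes). In equal lists the difference turned to −0.50 for Wnt10b, −0.83 for Lrp5, −0.25 for Fzd6, −1.25 for Kremen1 and −0.08 for Dkk1. Divided by the library mean it turned to −0.16 for Lef1 and −0.03 for Lrp5. All 24 members with values in every library kept a difference above 0 in each of the 10 leave-one-out settings. Other pathway genes called numbered 0 in equal lists and 51 of 55 with a −log10 q of at least 5, where 70.1% of all genes were called. In equal lists the members above a day 6 group numbered 21 for mTEC4, 12 for mTEC1 and 6 for mTEC2. Embryonic-only regions numbered 14 of 304 in equal lists, 58 of 232 with a −log10 q of at least 5 and 49 to 81 on leaving out 1 library. The main setting had 649 member regions. Day-6-only regions numbered 0 in equal lists, 0 with a −log10 q of at least 5 and 0 to 2 on leaving out 1 library. Regions in 1 library numbered 149 of 304 in equal lists and 85 of 232 at this stricter threshold, and those in all libraries 15 and 1. The shares of regions over all gene windows in these settings are not given here. Starts called in all embryonic libraries numbered 13 of 33 in equal lists (39.6% of genes) and 15 of 33 at the stricter threshold. Embryonic-only starts numbered 2 (0.589% of genes) and 5, and starts called in all libraries 7 (28% of genes) and 1. The shares of genes for starts at the stricter threshold are not given here. The causes were not tested.

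With the replicate number as a block, 0 members were called, with a smallest adjusted p of 0.063 by the exact permutation test. At an unadjusted p under 0.05 by that test 37 members had more embryonic regions, where 33.4% of genes stood. With the block in equal lists 0 members were called, and the same 5 members had differences below 0. The labels share only numbers and do not say that same-numbered libraries were paired. Correlations of same-numbered libraries' deviations from their group means ran from −0.724 to 0.318. With 2 libraries per group, each deviation reflects a single replicate difference, so these correlations cannot decide whether the samples were paired. The lists give no read depth, so a missing peak sets no upper limit.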
